A study of Mus musculus with 8 samples.

Results

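The Wnt pathway genes described here are 50 listed mouse genes that code for Wnt ligands, their receptors, the proteins that carry the signal inside the cell, and the inhibitors and feedback targets of the pathway. A gene was included where a probe's accession mapped through RefSeq to its symbol, which gave 49 genes of 18842 with a named probe; no probe was matched to Lrp5, a co-receptor. Total RNA of N31 cells, neural progenitors derived from mouse embryonic stem cells, was labelled with Cy3 and hybridised to Agilent whole mouse genome arrays, 8 in all, in 4 groups of 2. The groups were W20-expressing cells 72 h after the start of reprogramming, EGFP-expressing control cells 72 h after it, W20-expressing progenitors (NPC) and EGFP-expressing control progenitors.

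All groups were N31 cells that carry either W20 or EGFP, and all were kept in a medium with EGF and bFGF at 10 ng/ml each. The labels of the 72 h groups add doxycycline (Dox) at 40 ng/ml, given for 48 h in that medium and then for 24 h in a medium with 10% KSR and LIF at 1000 U/ml. Which transgenes Dox induced is not given in the sources used here, nor what W20 is beyond the series title, which speaks of bacterial proteins. The cells are a single line, so each group shows that line and not neural progenitors at large.

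Wnt proteins are secreted lipid-modified ligands that bind Frizzled receptors. With the co-receptors Lrp5 and Lrp6 they stop a destruction complex of Apc, Axin and Gsk3 from marking beta-catenin for degradation, and beta-catenin then enters the nucleus and switches on target genes together with TCF and LEF factors. Other Wnt proteins act through Frizzled receptors without beta-catenin, on cell polarity and calcium. In the developing brain the pathway is known for patterning and for keeping progenitors in division, and in embryonic stem cells for supporting self-renewal.

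Of the 49 genes with a probe, 41 were tested, since in at least 1 group both arrays had their brightest probe well above background. In 35 of these the probe was well above background on all 8 arrays, and in 6 (Wnt4, Wnt5a, Axin2, Dkk1, Sfrp5 and Nkd2) on only some. The 8 genes not tested were Wnt3, Wnt3a, Wnt7a, Wnt8b, Fzd10, Lgr5, Rspo3 and Wif1. Of these, 6 were well above background on 0 of 8 arrays; Wnt3 was above it on 2, 1 of each 72 h group, and Fzd10 on 2, 1 of each EGFP group. Levels are given as the log2 signal minus the array's 75th percentile, so that 0 is the 75th percentile of that array, and the level of one gene's probe was not set against that of another gene.

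The 75th percentile was 826.5 and 826.7 intensity units on the W20 arrays at 72 h, against 900.9 to 938.0 on the EGFP arrays at 72 h and 850.8 to 882.0 in NPC, and 57.0% to 62.4% of spots were well above background. Of 13 neural progenitor markers, 10 to 12 were well above background on both arrays of each group; Olig2 was not above it in any group, and Hes5 only in EGFP cells at 72 h. The pluripotency genes Pou5f1, Dppa3 and Lin28a were not well above background on either array of any group. Of 8 pluripotency markers with a probe, 3 were above it on both arrays of W20 cells at 72 h. In each other group 4 were. All 72 h arrays lay on 1 slide and all NPC arrays on the other, so a difference between 72 h and NPC cannot be told apart from a difference between slides. W20 and EGFP arrays of a stage shared a slide. Separate cultures are not named in the labels for the samples of a group; the spread behind each p-value may therefore be technical.

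The promoters that hold a TCF and LEF motif are shown because the members' own transcription can depend on the pathway. RefSeq windows of assembly GRCm38.p6, from 250 bases before to 50 after a gene's start, were at hand for 35 of the 50 genes and were searched for CTTTGAA and CTTTGAT on both strands. Either motif was found in 3 of the members' 44 windows (6.82%), against 8.65% of the 32851 promoters in the table, so the share was not above that of all promoters. By gene it was 3 of 35 (8.57%), a share not counted over all genes. The windows below are those of Dkk1 (chr19:30549447-30549746, minus strand), Wnt5b (chr6:119449337-119449636, minus strand, 1 of its 3 starts) and Wnt11 (chr7:98834862-98835161, plus strand, 1 of its 2 starts); capitals mark the motif, which begins 117, 71 and 51 bases before the start.
Dkk1: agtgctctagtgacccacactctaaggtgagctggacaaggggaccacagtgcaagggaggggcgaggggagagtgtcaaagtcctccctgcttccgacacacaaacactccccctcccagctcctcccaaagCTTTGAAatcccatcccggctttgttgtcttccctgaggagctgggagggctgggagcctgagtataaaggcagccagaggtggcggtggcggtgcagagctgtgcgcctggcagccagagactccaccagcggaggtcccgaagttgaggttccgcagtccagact
Wnt5b: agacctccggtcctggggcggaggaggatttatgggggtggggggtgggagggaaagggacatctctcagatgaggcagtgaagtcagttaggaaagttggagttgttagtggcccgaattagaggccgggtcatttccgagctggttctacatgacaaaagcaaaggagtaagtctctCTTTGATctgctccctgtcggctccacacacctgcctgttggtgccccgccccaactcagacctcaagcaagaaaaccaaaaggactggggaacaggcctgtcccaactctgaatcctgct
Wnt11: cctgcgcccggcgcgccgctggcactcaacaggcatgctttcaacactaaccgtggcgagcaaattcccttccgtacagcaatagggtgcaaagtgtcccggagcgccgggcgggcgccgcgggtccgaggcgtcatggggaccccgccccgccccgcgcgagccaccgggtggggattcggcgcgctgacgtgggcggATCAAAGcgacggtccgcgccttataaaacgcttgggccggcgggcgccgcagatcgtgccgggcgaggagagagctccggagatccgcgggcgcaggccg
In Dkk1 and Wnt5b the motif reads along the gene, and in Wnt11 it lies on the opposite strand, where ATCAAAG is CTTTGAT read from the other side. The windows of Axin2, Nkd2, Sfrp2, Lgr4, Wnt6 and Wnt9a, whose values are given below, do not hold these letters.

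With their brightest probes, the secreted antagonists Dkk1, Dkk2, Dkk3 and Sfrp2 and the Dishevelled inhibitor Nkd1 were lower with W20 at both stages. The 72 h calls of Dkk1 and Dkk2 were lost with normexp background correction, and the second probes of Dkk1 and Nkd1 did not pass at 72 h. Of the 8 ligands tested, 2 passed at 72 h and 6 in NPC, and of the 10 receptors and co-receptors, 7 at 72 h and 8 in NPC. At 72 h, 7 of the 41 members tested rose and 16 fell with W20, and 18 did not pass an adjusted p of 0.05; over all 13617 genes tested 52.8% passed, 28.5% higher and 24.3% lower. The members' median log2 difference was 0.0, against 0.03 over all genes. In NPC, 9 members rose, 20 fell and 12 did not pass, where 55.5% of all genes passed, 31.8% higher and 23.7% lower, and the median was -0.21, against 0.04. At 72 h, 23 of 41 members passed, a share near that of all genes, and in NPC 29 of 41, a share above it. The share that fell, 39.0% at 72 h and 48.8% in NPC, stood above the 24.3% and 23.7% over all genes. The members were chosen with earlier results of these data known, so this share is not independent evidence. Of the 16 members that fell at 72 h and the 20 in NPC, 13 were in both sets. Of the 7 and 9 that rose, 4 were in both, and Fzd4 and Nkd2 passed in opposite directions. The overlap of the stages was not counted over all genes. Here and below, adjusted p-values are limma's over all genes tested, two-sided, with n = 2 arrays a group.

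From NPC to 72 h the ligand Wnt7b fell and the inhibitors Nkd2, Sfrp1 and Sfrp2, the R-spondin receptor Lgr4 and the receptors Fzd3 and Fzd9 rose, with W20 as with EGFP. With W20, 21 members rose, 10 fell and 10 did not pass, where 74.7% of all genes passed, 37.5% higher and 37.2% lower. With EGFP, 17 rose, 14 fell and 10 did not pass, where 69.9% of all genes passed, 36.1% higher and 33.9% lower. The median log2 difference of the members was 0.17 with W20 and 0.02 with EGFP, against 0.01 over all genes in both. Called log2 differences of 1 or more, up or down, numbered 15 of 41 members with W20 and 13 of 41 with EGFP. Over all genes the shares were 17.8% and 13.3%. For W20 over EGFP, 4 of 41 members at 72 h and 8 of 41 in NPC reached that size, against 3.33% and 4.07%. These counts take the signal as read, also where a group was not well above background. They include Wnt4 in NPC and Axin2 over 72 h with W20, for which no fold is given below. They also include Wnt5a with W20 and Wnt4 and Axin2 with EGFP over 72 h, whose lower bounds are under 2-fold.

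The W20 effect itself differed between the stages for 22 members: the 72 h effect minus the NPC effect was positive for 14 and negative for 8, where 30.9% of all genes passed, 14.1% higher and 16.8% lower. Called log2 differences of 1 or more, up or down, numbered 6 of 41 members, Wnt4 among them, against 3.94% of all genes. Of the 41 members, 39 passed in at least 1 of the 5 comparisons, a share not counted over all genes. In each comparison 30.9% to 74.7% of all genes passed. Fzd5 and Sfrp5 passed in none with their brightest probes.

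**Figure D1:**
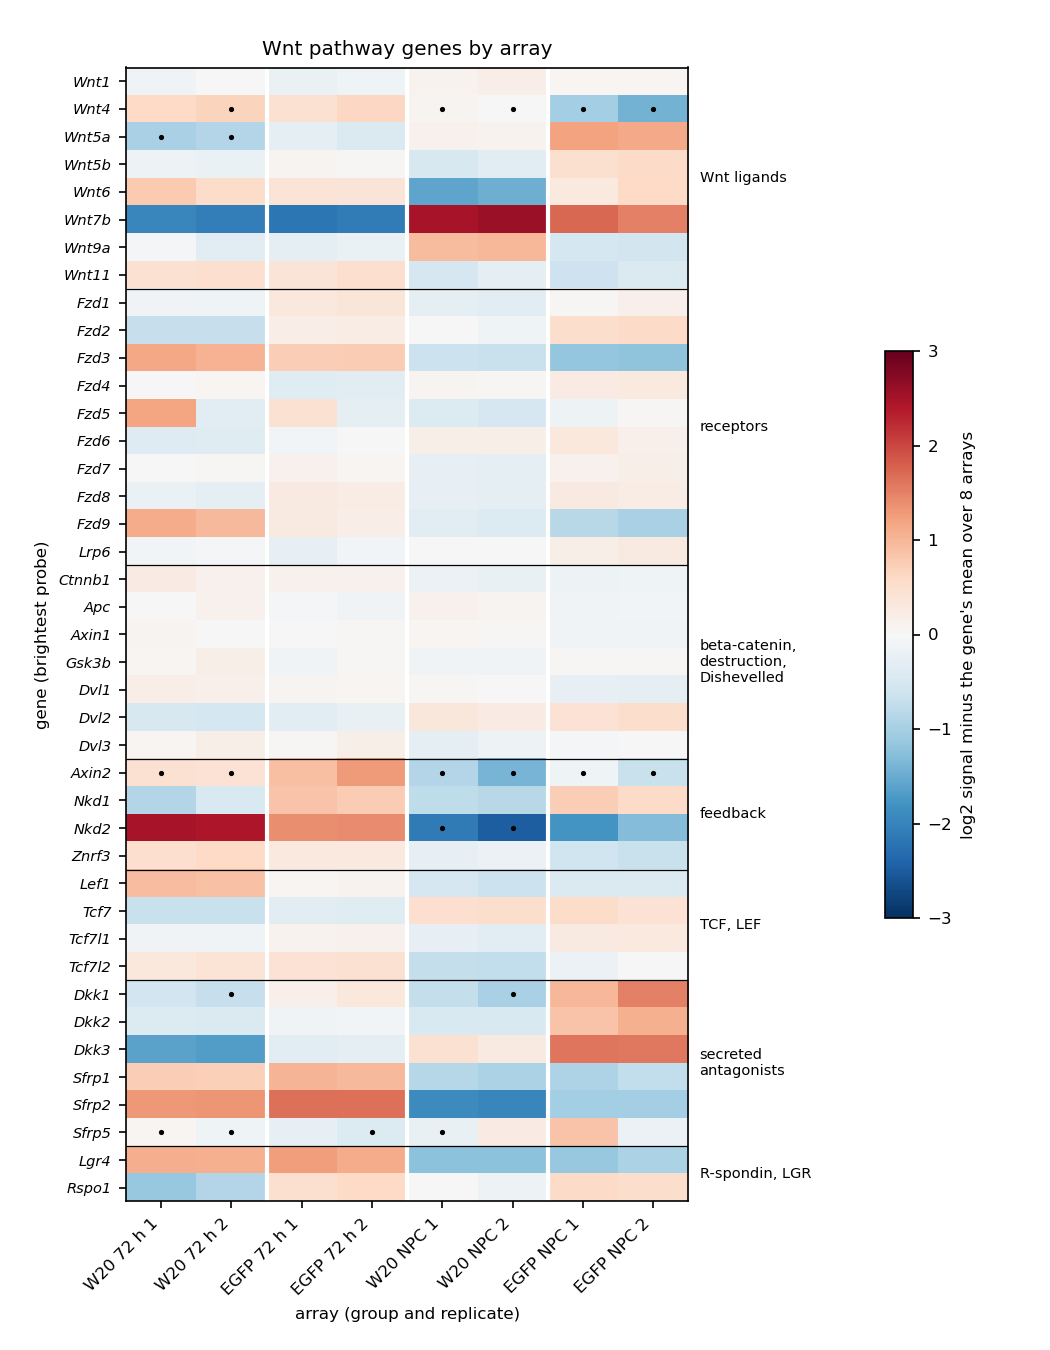
Log2 signal of the brightest probe of the 41 tested Wnt pathway genes on each of the 8 arrays, minus the gene's mean over the 8 arrays; rows are genes grouped by role, columns are arrays, and a black dot marks a probe not well above background on that array. Arrays of a group look alike, Wnt7b is low and Nkd2, Sfrp2 and Lgr4 are high on all 4 arrays of the 72 h groups, and Dkk3 is lowest on the W20 arrays at 72 h.

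Among the ligands, Wnt6, a ligand of the beta-catenin branch, and Wnt9a set W20 progenitors apart most clearly, Wnt6 lower and Wnt9a higher, and neither differed detectably between W20 and EGFP cells at 72 h. Wnt6 read -2.73 and -2.95 in W20 cells and -3.09 and -3.12 in EGFP cells at 72 h, and -5.10 and -4.97 in W20 cells and -3.22 and -2.91 in EGFP cells in NPC. The W20 arrays in NPC lay below all others, by more than the distance between any 2 arrays of a group. The log2 difference of W20 over EGFP was 0.27 ± 0.12 (SE, adjusted p = 0.114) at 72 h and -1.97 ± 0.12 (3.92-fold lower, adjusted p = 1.58e-04) in NPC, and the effects differed by 2.24 ± 0.17 (adjusted p = 6.81e-04). From NPC to 72 h Wnt6 rose 4.58-fold with W20 (adjusted p = 1.61e-05), against a log2 difference of -0.04 ± 0.12 with EGFP (adjusted p = 0.786).

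Wnt9a read -2.61 and -2.89 in W20 cells and -2.87 and -2.77 in EGFP cells at 72 h, and -1.62 and -1.57 in W20 cells and -3.11 and -3.13 in EGFP cells in NPC. The groups overlapped at 72 h and not in NPC. The log2 difference was 0.07 ± 0.09 (adjusted p = 0.543) at 72 h and 1.52 ± 0.09 (2.87-fold higher, adjusted p = 1.52e-04) in NPC, a difference of effects of -1.45 ± 0.13 (adjusted p = 0.00106). Over 72 h Wnt9a fell 2.22-fold with W20 (adjusted p = 7.76e-05) and rose 1.23-fold with EGFP (adjusted p = 0.0281); the call with EGFP was lost with normexp (0.07, adjusted p = 0.461) and without any 1 of the 4 EGFP arrays.

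Wnt7b, a ligand of the beta-catenin branch that is known from the developing forebrain, was the member that fell most over 72 h. It read -2.36 and -2.47 in W20 cells and -2.56 and -2.48 in EGFP cells at 72 h, against 2.09 and 2.20 in W20 cells and 1.33 and 1.12 in EGFP cells in NPC. All 4 arrays of the 72 h groups lay below all 4 NPC arrays, and in NPC both W20 arrays lay above both EGFP arrays. The log2 difference of 72 h over NPC was -4.56 ± 0.08 with W20 (23.6-fold lower, adjusted p = 3.39e-07) and -3.74 ± 0.08 with EGFP (13.4-fold lower, adjusted p = 1.10e-06). W20 over EGFP was 0.10 ± 0.08 at 72 h (adjusted p = 0.327) and 0.92 ± 0.08 in NPC (1.89-fold higher, adjusted p = 4.51e-04), and the effects differed by -0.82 ± 0.12 (adjusted p = 0.00487).

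Wnt5a and Wnt5b, which act mainly without beta-catenin, were lower with W20. Wnt5a read -5.31 and -5.21 in W20 cells, not well above background on either array, and -4.61 and -4.76 in EGFP cells at 72 h, and -4.19 and -4.23 in W20 cells and -3.12 and -3.18 in EGFP cells in NPC. The 4 groups did not overlap. In NPC Wnt5a was 2.09-fold lower with W20 (log2 difference -1.06 ± 0.06, adjusted p = 1.42e-04), and at 72 h at least 1.41-fold lower (adjusted p = 9.01e-04). Where neither array of a group had the probe well above background, as here, the fold is given as a lower bound, computed against the lowest signal well above background on those arrays or the probe's own signal, whichever was higher. Over 72 h Wnt5a fell at least 1.95-fold with W20 (adjusted p = 2.26e-05) and 2.90-fold with EGFP (adjusted p = 7.69e-06).

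Wnt5b, whose promoter window above holds CTTTGAT, read -2.15 and -2.21 in W20 cells and -1.92 and -1.96 in EGFP cells at 72 h, and -2.49 and -2.35 in W20 cells and -1.51 and -1.42 in EGFP cells in NPC. At each stage both W20 arrays lay below both EGFP arrays. The log2 difference was -0.23 ± 0.06 at 72 h (1.18-fold lower, adjusted p = 0.0197) and -0.96 ± 0.06 in NPC (1.94-fold lower, adjusted p = 1.67e-04). Over 72 h it rose 1.19-fold with W20 (adjusted p = 0.0105) and fell 1.39-fold with EGFP (adjusted p = 6.83e-04), and the W20 effects differed by 0.72 ± 0.08 (adjusted p = 0.00245). The call for W20 over EGFP at 72 h was lost with normexp (-0.09, adjusted p = 0.208), with the mean of its probes (-0.16, adjusted p = 0.334) and without W20 replicate 2 or either EGFP replicate of that stage. Its second probe read -0.09 for W20 over EGFP at 72 h (adjusted p = 0.769) and -1.06 in NPC (adjusted p = 0.0106), and over 72 h 0.17 with W20 (adjusted p = 0.526) and -0.80 with EGFP (adjusted p = 0.0211).

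Wnt11, which acts on cell polarity and whose window holds ATCAAAG, read -3.58 and -3.54 in W20 cells and -3.66 and -3.54 in EGFP cells at 72 h, against -4.54 and -4.30 in W20 cells and -4.65 and -4.47 in EGFP cells in NPC. It rose 1.81-fold with W20 (adjusted p = 4.57e-04) and 1.94-fold with EGFP (adjusted p = 3.40e-04), and W20 and EGFP arrays overlapped at both stages. Wnt1, known from the midbrain border and dorsal neural tube, fell 1.16-fold with W20 and 1.17-fold with EGFP (adjusted p = 0.0117 and 0.0120), and each call was lost under some settings, with normexp at -0.03 with W20 (adjusted p = 0.825). Wnt4 was well above background on 1 of 2 W20 arrays and 2 of 2 EGFP arrays at 72 h and on none in NPC, so no fold is given for W20 over EGFP in NPC. Its signal over 72 h was at least 1.23-fold higher with W20 (adjusted p = 0.0089) and at least 1.34-fold higher with EGFP (adjusted p = 8.27e-05). Wnt4 entered the test only through EGFP cells at 72 h, so its rise with EGFP is not independent of the filter on dim probes. With normexp background correction, which compresses dim signals, the calls of Wnt4 in NPC, at 72 h over NPC and in the difference of effects were lost, and that of Wnt5a at 72 h (log2 difference -0.09, adjusted p = 0.315). Wnt6 in NPC was then -0.93, Wnt5a -0.58 and Wnt9a 0.98 on the log2 scale, and all passed.

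**Figure D2:**
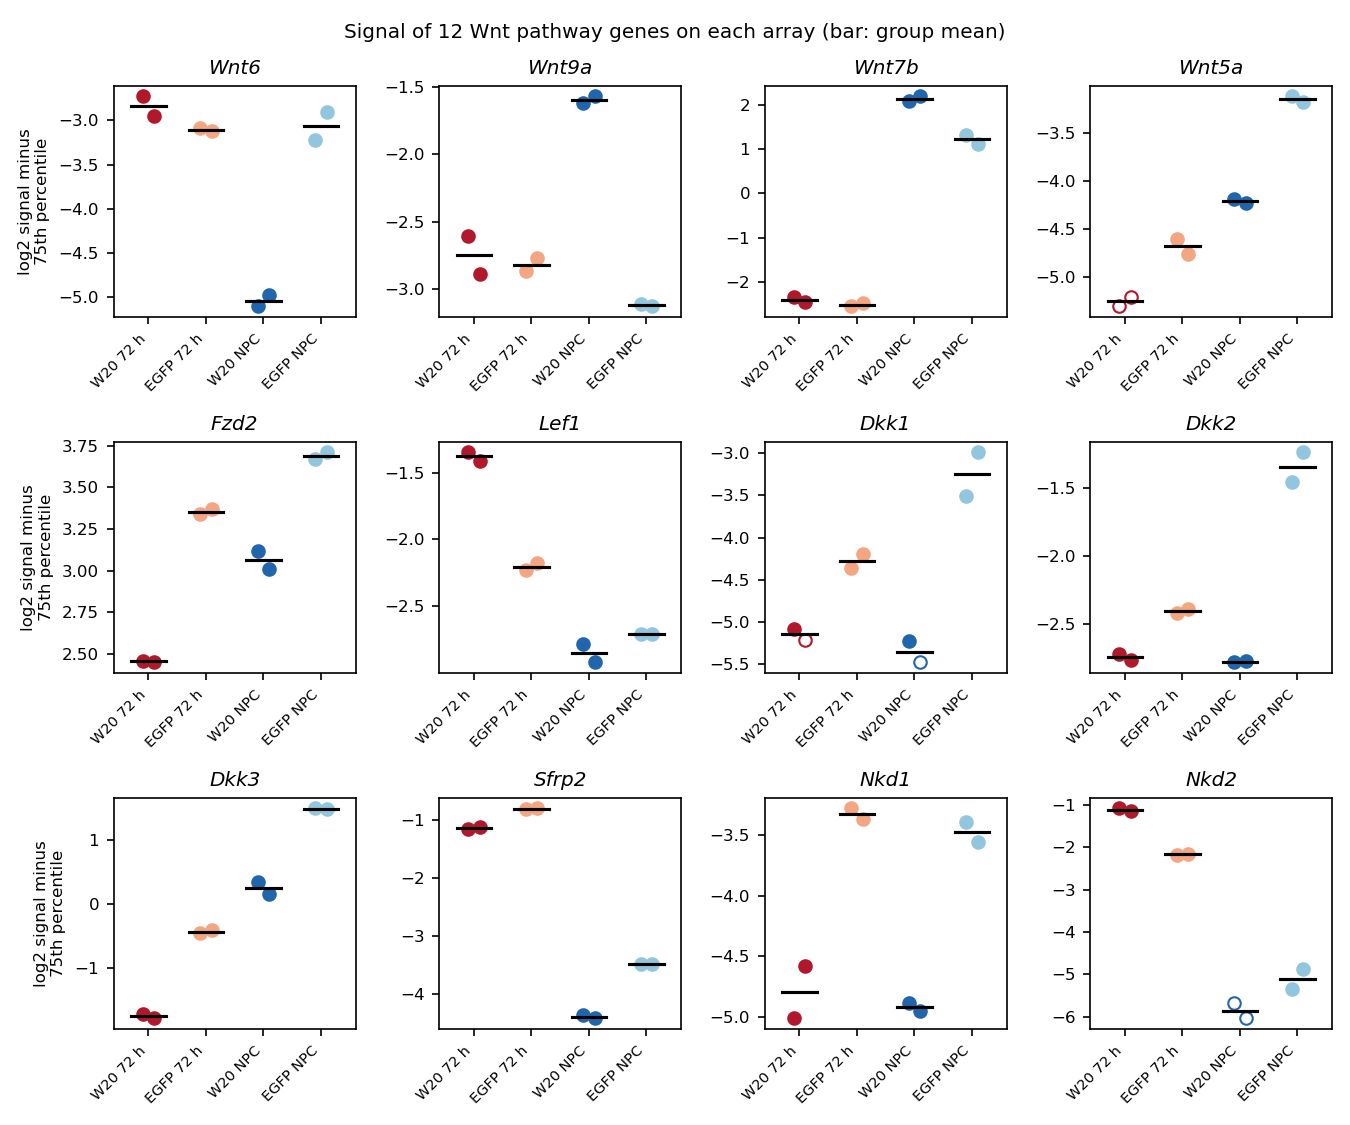
Log2 signal minus the array's 75th percentile of 12 Wnt pathway genes on each array (points) with the group mean (bars), for W20 and EGFP cells at 72 h and in NPC; open points were not well above background, and each panel has its own scale. Wnt6 and Wnt9a separate W20 from EGFP cells in NPC and not at 72 h, while Dkk3 and Nkd1 separate them at both stages.

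Of the Frizzled receptors, the membrane proteins that bind Wnt, Fzd2, Fzd1 and Fzd8 were lower and Fzd9 higher with W20 at both stages. Fzd2 read 2.46 and 2.45 in W20 cells and 3.34 and 3.37 in EGFP cells at 72 h, and 3.12 and 3.01 in W20 cells and 3.67 and 3.71 in EGFP cells in NPC. The arrays of each group lay close together and the 4 groups did not overlap. Fzd2 was 1.87-fold lower with W20 at 72 h (log2 difference -0.90 ± 0.04, adjusted p = 7.86e-05) and 1.55-fold lower in NPC (-0.63 ± 0.04, adjusted p = 2.01e-04). Its second probe read -1.18 and -1.10 at these stages, and both passed. Over 72 h Fzd2 fell 1.53-fold with W20 and 1.27-fold with EGFP (adjusted p = 4.40e-05 and 7.01e-04).

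Fzd9, known from neural precursors of the hippocampus, read -0.30 and -0.44 in W20 cells and -1.13 and -1.20 in EGFP cells at 72 h, and -1.74 and -1.83 in W20 cells and -2.24 and -2.39 in EGFP cells in NPC. The groups stood apart, W20 at 72 h highest and EGFP in NPC lowest. The log2 difference of W20 over EGFP was 0.79 ± 0.07 at 72 h (1.73-fold higher, adjusted p = 5.46e-04) and 0.53 ± 0.07 in NPC (1.44-fold higher, adjusted p = 0.00196). Over 72 h Fzd9 rose 2.66-fold with W20 and 2.22-fold with EGFP (adjusted p = 1.30e-05 and 4.25e-05).

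Fzd3, known for axon guidance and planar cell polarity, rose over 72 h. It read -1.72 and -1.84 in W20 cells and -2.15 and -2.13 in EGFP cells at 72 h, against -3.54 and -3.56 in W20 cells and -4.05 and -4.08 in EGFP cells in NPC, a rise of 3.40-fold with W20 and 3.80-fold with EGFP (adjusted p = 9.81e-07 and 1.36e-06). All 3 probes of Fzd3 rose with both, with log2 differences of 1.77 to 1.97 with W20 and 1.42 to 1.98 with EGFP. The difference of W20 over EGFP in NPC, 0.52 ± 0.05 (adjusted p = 4.31e-04), did not hold over the probes: the others read 0.17 and -0.19 without passing, and their mean with it was 0.16 (adjusted p = 0.0772). It was also lost with normexp (0.11, adjusted p = 0.323). At 72 h Fzd3 was 1.28-fold higher with W20 (adjusted p = 0.00167); of the other probes, 1 was higher too (0.36, adjusted p = 0.0157) and 1 did not pass (0.16, adjusted p = 0.282).

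Fzd4 went opposite ways with W20 at the 2 stages: it was 1.28-fold higher at 72 h (adjusted p = 0.0013) and 1.16-fold lower in NPC (adjusted p = 0.00772), with a difference of effects of 0.57 ± 0.06 (adjusted p = 0.0018). Over 72 h its log2 difference was -0.04 ± 0.04 with W20 (adjusted p = 0.432), and it fell 1.52-fold with EGFP (adjusted p = 6.05e-05). Fzd1 was 1.37-fold lower with W20 at 72 h and 1.31-fold lower in NPC, and Fzd8 1.40-fold lower and 1.42-fold lower (adjusted p at most 0.00119 in the 4 tests). Fzd6 was 1.26-fold lower with W20 at 72 h (adjusted p = 0.00447), and its difference in NPC did not pass (-0.06 ± 0.06, adjusted p = 0.404). Over 72 h Fzd6 fell 1.47-fold with W20 and 1.21-fold with EGFP (adjusted p = 2.38e-04 and 0.00559).

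The probes of Fzd7 disagreed. The brighter one was 1.34-fold lower with W20 in NPC (adjusted p = 5.53e-04) and rose 1.23-fold over 72 h with W20 (adjusted p = 9.36e-04), while the other fell over 72 h with W20 (log2 difference -0.45) and had a difference of effects of -0.29, against 0.35 for the brighter one, so no direction is given for these comparisons. At 72 h the brighter probe did not pass for W20 over EGFP (-0.07, adjusted p = 0.179) and the other was lower (-0.73, adjusted p = 2.17e-04). With the mean of both probes the change of Fzd7 over 72 h with W20 was -0.08 (adjusted p = 0.0557). Lrp6, the co-receptor that had a probe, was 1.16-fold lower with W20 in NPC (adjusted p = 0.0298), a call lost under 7 settings, among them normexp (adjusted p = 0.0502) and without W20 NPC replicate 1 or 2 or EGFP NPC replicate 2 (adjusted p = 0.0854, 0.111 and 0.139). At 72 h its log2 difference was 0.10 ± 0.06 (adjusted p = 0.223). Over 72 h Lrp6 fell 1.30-fold with EGFP (adjusted p = 0.00242), and with W20 it did not pass (-0.06 ± 0.06, adjusted p = 0.412). The brightest probe of Fzd5 passed nowhere, and its W20 arrays at 72 h read -2.66 and -4.18. Its second probe was lower over 72 h, with log2 differences of -0.71 with W20 (adjusted p = 0.00208) and -0.51 with EGFP (adjusted p = 0.00971).

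**Figure D3:**
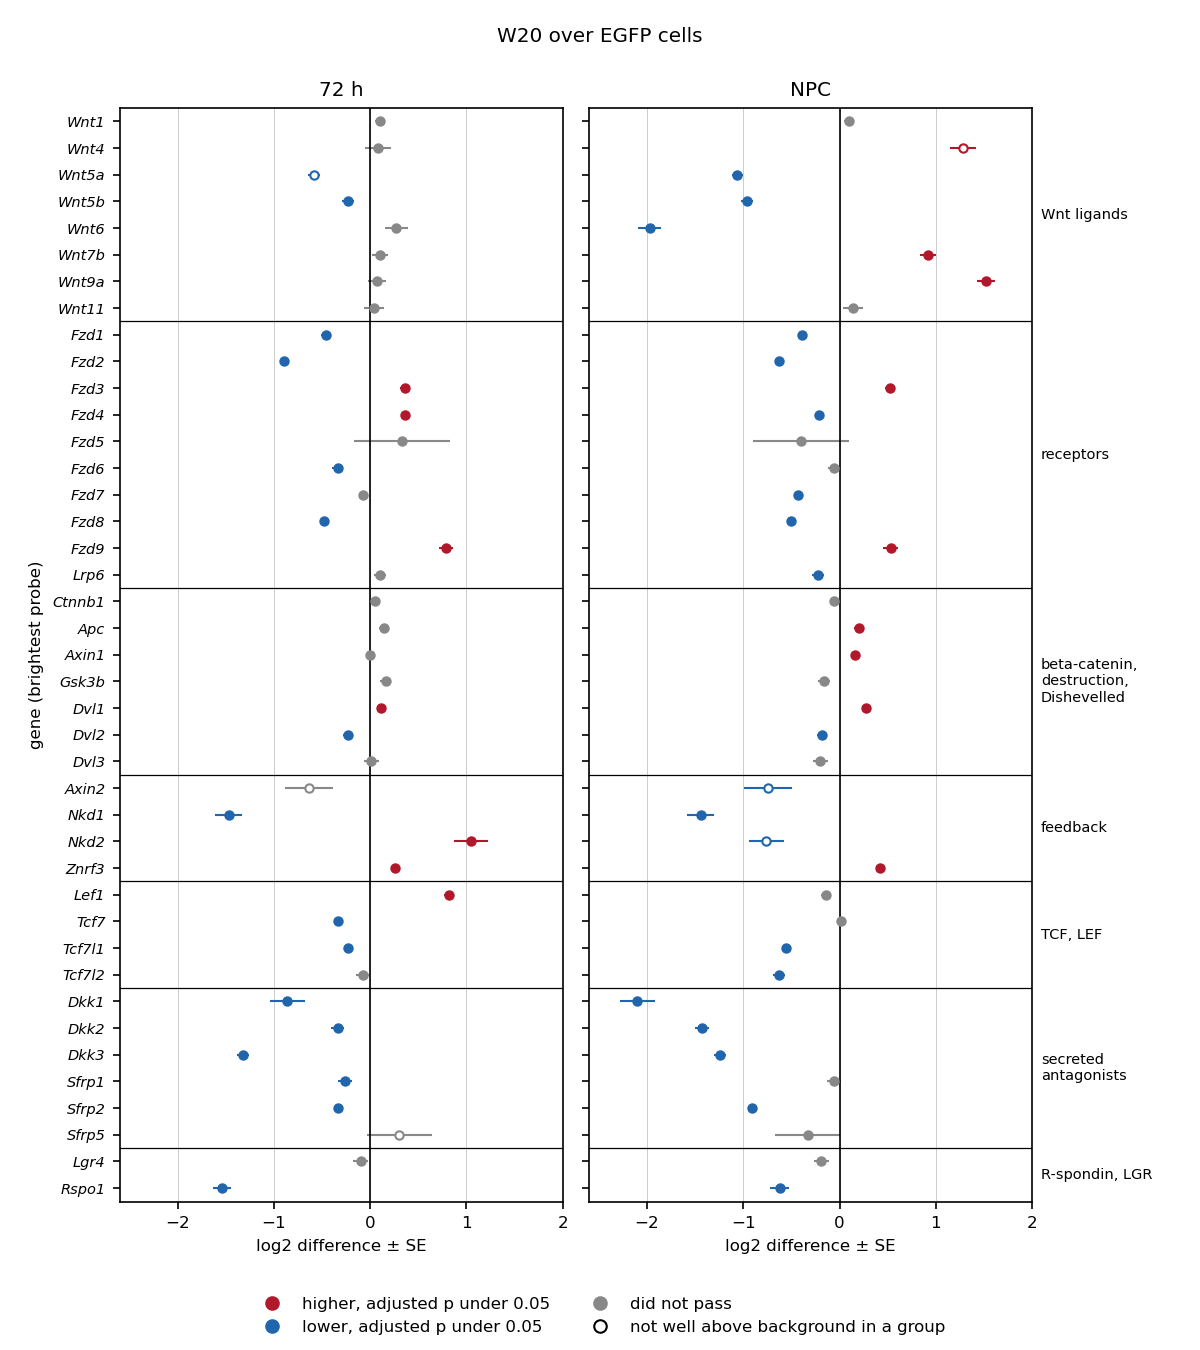
Log2 difference of W20 over EGFP cells ± SE (x axis, n = 2 arrays a group) for the 41 tested genes at 72 h (left panel) and in NPC (right panel); filled red and blue points passed an adjusted p of 0.05, grey ones did not, and open points had a group with no array well above background. The secreted antagonists Dkk1, Dkk2, Dkk3 and Sfrp2 lie left of 0 in both panels, while Wnt6 and Wnt9a passed in NPC and not at 72 h.

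Inside the cell, the transcripts of beta-catenin, its destruction complex and the Dishevelled proteins moved little with W20. Their log2 differences lay between -0.23 and 0.28 for W20 over EGFP at both stages. Axin2, also a part of that complex, was counted with the feedback targets and is left out of this range. Ctnnb1, which codes for beta-catenin itself, read 3.98 and 3.88 in W20 cells and 3.88 and 3.88 in EGFP cells at 72 h, and 3.57 and 3.53 in W20 cells and 3.59 and 3.62 in EGFP cells in NPC. W20 over EGFP did not pass, with log2 differences of 0.05 ± 0.04 at 72 h (adjusted p = 0.36) and -0.06 ± 0.04 in NPC (adjusted p = 0.284), while a second probe was lower in NPC (-0.13, adjusted p = 0.0238) and did not pass at 72 h (-0.01, adjusted p = 0.856). Over 72 h Ctnnb1 rose 1.30-fold with W20 and 1.21-fold with EGFP (adjusted p = 3.86e-04 and 0.00204), and the second probe rose too, by 0.62 and 0.49 on the log2 scale.

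Dvl2, 1 of the 3 Dishevelled proteins that pass the signal on from Frizzled, read 0.52 and 0.49 in W20 cells and 0.70 and 0.78 in EGFP cells at 72 h, against 1.35 and 1.26 in W20 cells and 1.44 and 1.53 in EGFP cells in NPC. It fell 1.74-fold with W20 and 1.68-fold with EGFP (adjusted p = 3.37e-05 and 6.21e-05), and was 1.17-fold lower with W20 at 72 h and 1.13-fold lower in NPC (adjusted p = 0.0132 and 0.0322). The NPC call of Dvl2 was lost under 9 settings, among them without W20 NPC replicate 2 or EGFP NPC replicate 2 (adjusted p = 0.152 and 0.149), and the 72 h call without W20 or EGFP replicate 2 of that stage (adjusted p = 0.0578 and 0.0688). Dvl1 moved the other way: over 72 h it rose 1.11-fold with W20 and 1.25-fold with EGFP, and with W20 it was 1.08-fold higher at 72 h and 1.21-fold higher in NPC (adjusted p = 0.00522, 2.28e-04, 0.0326 and 9.37e-04). The 72 h call of W20 over EGFP for Dvl1 was lost under 14 settings, normexp and leaving out any 1 array among them, and its second probe did not pass (0.10, adjusted p = 0.166). Dvl3 and Gsk3b, the kinase of the destruction complex, did not pass for W20 over EGFP at either stage, and rose over 72 h with W20 by 0.32 ± 0.08 and 0.23 ± 0.06 on the log2 scale (adjusted p = 0.0106 and 0.0126), each call lost without W20 replicate 2 of 72 h or W20 NPC replicate 1. Of the scaffolds, Apc was 1.15-fold and Axin1 1.11-fold higher with W20 in NPC (adjusted p = 0.0134 and 0.0178); each call was lost under 5 settings, Axin1's without any 1 NPC array and Apc's without W20 or EGFP NPC replicate 1. Of the 5 probes of Apc, 3 passed in that comparison, all higher.

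Among the TCF and LEF factors, Lef1, a nuclear partner of beta-catenin and also a target of the pathway, was higher with W20 at 72 h and not in NPC. It read -1.35 and -1.41 in W20 cells and -2.23 and -2.18 in EGFP cells at 72 h, and -2.78 and -2.92 in W20 cells and -2.71 and -2.71 in EGFP cells in NPC. The W20 arrays at 72 h lay above all others. The log2 difference of W20 over EGFP was 0.82 ± 0.05 at 72 h (1.77-fold higher, adjusted p = 1.61e-04) and -0.14 ± 0.05 in NPC (adjusted p = 0.0624), and the effects differed by 0.96 ± 0.07 (adjusted p = 6.66e-04). Over 72 h Lef1 rose 2.76-fold with W20 and 1.42-fold with EGFP (adjusted p = 2.85e-06 and 2.92e-04).

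Tcf7, the factor also called TCF1, fell over 72 h, to -0.98 and -0.99 in W20 cells and -0.64 and -0.68 in EGFP cells, against 0.18 and 0.20 in W20 cells and 0.22 and 0.12 in EGFP cells in NPC. It fell 2.26-fold with W20 and 1.77-fold with EGFP (adjusted p = 3.17e-06 and 1.83e-05), and both of its probes fell. With W20 it was 1.26-fold lower at 72 h (adjusted p = 0.00176), and W20 and EGFP overlapped in NPC. Tcf7l2, the factor also called TCF4, rose over 72 h, to 1.10 and 1.21 in W20 cells and 1.23 and 1.24 in EGFP cells, against 0.08 and 0.05 in W20 cells and 0.62 and 0.78 in EGFP cells in NPC. It rose 2.13-fold with W20 and 1.45-fold with EGFP (adjusted p = 2.08e-05 and 5.50e-04), and all 3 of its probes rose with both. With W20 it was 1.55-fold lower in NPC (adjusted p = 6.32e-04), and at 72 h its log2 difference was -0.08 ± 0.06 (adjusted p = 0.329).

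Tcf7l1, also called TCF3, which represses pathway targets in embryonic stem cells, was lower with W20 at both stages. It read 2.20 and 2.19 in W20 cells and 2.41 and 2.44 in EGFP cells at 72 h, and 2.06 and 1.98 in W20 cells and 2.58 and 2.59 in EGFP cells in NPC. At each stage both W20 arrays lay below both EGFP arrays, 1.18-fold lower at 72 h (adjusted p = 0.0031) and 1.48-fold lower in NPC (adjusted p = 1.75e-04). Over 72 h it rose 1.13-fold with W20 and fell 1.11-fold with EGFP (adjusted p = 0.00518 and 0.0098), the call with EGFP being lost under 4 settings. The second probe of Tcf7l1 was lower with W20 in NPC (-0.60, adjusted p = 0.00119) and did not pass at 72 h (-0.17, adjusted p = 0.0925). With their brightest probes all 4 factors had a difference of W20 effects that passed. It was positive for Lef1, Tcf7l2 and Tcf7l1 and negative for Tcf7 (-0.35 ± 0.06, adjusted p = 0.0093). The other probes of Tcf7l2 did not pass for this difference (0.26 and 0.28, adjusted p = 0.321 and 0.143). Those of Tcf7l1 and Tcf7 passed with the same sign.

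Of the 6 secreted antagonists tested, 5 fell with W20 at 72 h and 4 in NPC, where 24.3% and 23.7% of all genes fell, and none rose; all 3 Dkk genes and Sfrp2 fell at both stages. At 72 h the calls of Dkk1, Dkk2 and Sfrp1 were lost with normexp background correction, which left Dkk3 and Sfrp2. Dkk1, which blocks the co-receptors and is itself a target of beta-catenin, read -5.08 and -5.21 in W20 cells and -4.36 and -4.20 in EGFP cells at 72 h, and -5.23 and -5.48 in W20 cells and -3.51 and -2.99 in EGFP cells in NPC. It was well above background on 1 of 2 W20 arrays at each stage and on both EGFP arrays, and all W20 arrays lay below all EGFP arrays. The log2 difference was -0.86 ± 0.18 at 72 h (1.81-fold lower, adjusted p = 0.0105) and -2.10 ± 0.18 in NPC (4.30-fold lower, adjusted p = 4.11e-04), and the effects differed by 1.25 ± 0.26 (adjusted p = 0.0171). The call at 72 h was lost without W20 replicate 2 or EGFP replicate 2 of that stage (adjusted p = 0.051 and 0.0561) and with normexp background correction (-0.11, adjusted p = 0.55). The NPC value with normexp was -0.92 (adjusted p = 0.00124). A dimmer second probe of Dkk1 was lower in NPC (-1.91, adjusted p = 9.92e-04) and did not pass at 72 h (-0.47, adjusted p = 0.119). Dkk1 entered the test only through the EGFP groups, where it is higher, so these calls are not independent of the filter on dim probes.

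Dkk2, a second Dickkopf that binds the co-receptors, read -2.72 and -2.76 in W20 cells and -2.42 and -2.39 in EGFP cells at 72 h, and -2.78 and -2.77 in W20 cells and -1.46 and -1.24 in EGFP cells in NPC. The W20 arrays of both stages lay close together, and the EGFP arrays stood above them, in NPC most. The log2 difference was -0.34 ± 0.07 at 72 h (1.26-fold lower, adjusted p = 0.0102) and -1.43 ± 0.07 in NPC (2.69-fold lower, adjusted p = 9.79e-05), with a difference of effects of 1.09 ± 0.10 (adjusted p = 0.00114). The 72 h call of Dkk2 was lost with normexp (-0.19, adjusted p = 0.0676) and without EGFP replicate 2 of that stage (adjusted p = 0.0518). Over 72 h Dkk1 and Dkk2 fell with EGFP, 2.05-fold and 2.09-fold (adjusted p = 0.00308 and 5.06e-05), and did not pass with W20 (log2 differences 0.21 ± 0.18 and 0.03 ± 0.07, adjusted p = 0.336 and 0.688).

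Dkk3, a divergent Dickkopf whose action on the pathway is less clear, changed with W20 and with time. It read -1.72 and -1.78 in W20 cells and -0.45 and -0.41 in EGFP cells at 72 h, and 0.34 and 0.16 in W20 cells and 1.49 and 1.48 in EGFP cells in NPC. The 4 groups did not overlap. W20 cells were 2.50-fold lower at 72 h (log2 difference -1.32 ± 0.06, adjusted p = 8.12e-05) and 2.36-fold lower in NPC (-1.24 ± 0.06, adjusted p = 1.06e-04), with a difference of effects of -0.09 ± 0.09 that did not pass (adjusted p = 0.498). Over 72 h Dkk3 fell 4.00-fold with W20 and 3.76-fold with EGFP (adjusted p = 1.94e-06 and 3.82e-06).

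The Sfrp genes code for secreted proteins with a Frizzled-like domain that bind Wnt. Sfrp2 read -1.16 and -1.12 in W20 cells and -0.81 and -0.80 in EGFP cells at 72 h, against -4.36 and -4.41 in W20 cells and -3.48 and -3.47 in EGFP cells in NPC. It rose over 72 h 9.50-fold with W20 and 6.35-fold with EGFP (adjusted p = 9.11e-08 and 2.25e-07), and at each stage the W20 arrays lay below the EGFP arrays, 1.26-fold at 72 h and 1.88-fold in NPC (adjusted p = 6.27e-04 and 5.34e-05). Its difference of effects, 0.58 ± 0.05 (adjusted p = 7.20e-04), was lost with normexp (0.18, adjusted p = 0.216). Sfrp1 rose 3.11-fold with W20 and 3.56-fold with EGFP, to -1.53 and -1.55 in W20 cells and -1.25 and -1.31 in EGFP cells, against -3.12 and -3.23 in W20 cells and -3.20 and -3.01 in EGFP cells in NPC (adjusted p = 7.19e-06 and 7.34e-06). With W20 Sfrp1 was 1.20-fold lower at 72 h (adjusted p = 0.0282), a call lost with normexp (-0.13, adjusted p = 0.186), with spike-in scaling (adjusted p = 0.0515) and without any 1 of the 4 arrays of that stage (adjusted p = 0.0679 to 0.12). Both Sfrp genes rose over 72 h in the same samples in which Dkk3 fell. Sfrp5 passed nowhere, and 4 of 8 arrays had it well above background.

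Markers of mesenchymal cells and astrocytes moved with W20 as well. Of 10 mesenchymal markers, 9 fell with W20 at each stage and none rose, where 24.3% of all genes fell at 72 h and 23.7% in NPC, and their summed linear signal, relative to the array's 75th percentile, was 117 to 119 in W20 cells and 167 to 169 in EGFP cells at 72 h, and 123 to 125 in W20 cells and 171 to 192 in EGFP cells in NPC. The marker Lum was well above background on both arrays of EGFP NPC and on neither array of the other groups, and Postn on neither array of W20 cells at 72 h. Lum thus entered the test only through EGFP NPC, so its place in these counts is not independent of the filter on dim probes. Of 6 astrocyte markers tested, 3 fell and 2 rose with W20 at 72 h, and 4 fell and none rose in NPC (median log2 difference -0.48). The summed signal of all 8 astrocyte markers with a probe was 15.1 to 15.5 in W20 cells and 12.9 to 13.3 in EGFP cells at 72 h. In NPC it was 13.6 to 13.9 in W20 cells and 25.1 to 26.7 in EGFP cells. Of the 6 tested, 4 fell and 2 rose over 72 h with W20, and all 6 fell with EGFP (medians -0.98 and -1.45). Of all genes, 37.2% fell over 72 h with W20 and 33.9% with EGFP. Gfap was well above background in EGFP NPC only, and Aqp4 and Slc1a2 on no array of any group. Like Lum, Gfap entered the test only through EGFP NPC. The part of such cells in the lower antagonists and in the changes over 72 h was not tested. In bulk RNA, fewer cells of a type and less RNA per cell cannot be told apart.

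Among the feedback inhibitors, Nkd1 and Nkd2 code for the Naked cuticle proteins, which bind Dishevelled and are induced by the pathway in several tissues. Nkd1 read -5.01 and -4.58 in W20 cells and -3.28 and -3.37 in EGFP cells at 72 h, and -4.88 and -4.95 in W20 cells and -3.39 and -3.56 in EGFP cells in NPC. All W20 arrays lay below all EGFP arrays, and the stages overlapped with W20. W20 cells were 2.77-fold lower at 72 h (log2 difference -1.47 ± 0.14, adjusted p = 6.10e-04) and 2.72-fold lower in NPC (-1.44 ± 0.14, adjusted p = 5.91e-04), and with normexp background correction -0.54 and -0.66 (adjusted p = 0.00108 and 3.55e-04). Over 72 h Nkd1 did not pass with W20 or EGFP (0.12 ± 0.14 and 0.15 ± 0.14, adjusted p = 0.473 and 0.388). Its dimmer second probe was lower with W20 in NPC (-1.82) and did not pass at 72 h (-0.97).

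Nkd2 behaved otherwise. It read -1.08 and -1.13 in W20 cells and -2.17 and -2.15 in EGFP cells at 72 h, against -5.69 and -6.04 in W20 cells, not well above background on either array, and -5.35 and -4.87 in EGFP cells in NPC. The 4 groups did not overlap, and W20 cells were highest at 72 h. Over 72 h Nkd2 rose at least 20-fold with W20 (adjusted p = 3.54e-06) and 7.73-fold with EGFP (adjusted p = 3.35e-05), and its second probe rose with both, by 3.45 and 2.84 on the log2 scale. With normexp background correction the log2 differences were 2.73 with W20 and 1.41 with EGFP, both called and smaller than these folds, the first also than its bound. W20 cells were 2.08-fold higher at 72 h (log2 difference 1.05 ± 0.18, adjusted p = 0.0045) and at least 1.25-fold lower in NPC (adjusted p = 0.0141), and the effects differed by 1.81 ± 0.25 (adjusted p = 0.00445). The call in NPC was lost without W20 NPC replicate 2 (-0.58, adjusted p = 0.0667) and with the mean of the gene's probes (-0.28, adjusted p = 0.0926); the second probe read 0.19 there without passing (adjusted p = 0.409), and at 72 h it passed (0.80, adjusted p = 0.0137).

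Axin2, a scaffold of the destruction complex and a widely used reporter of beta-catenin activity, was well above background only on the 2 EGFP arrays at 72 h. It read -5.40 and -5.44 in W20 cells and -4.97 and -4.58 in EGFP cells at 72 h, and -6.75 and -7.25 in W20 cells and -5.99 and -6.53 in EGFP cells in NPC. Over 72 h its log2 difference with W20 was 1.58 ± 0.25 (adjusted p = 0.00162), with no fold since neither group was above background, and 0.33 with normexp background correction (adjusted p = 0.0289). With EGFP it rose at least 1.80-fold (adjusted p = 0.00242), a call that was lost with normexp (0.09, adjusted p = 0.48). Axin2 entered the test only through EGFP cells at 72 h, so this rise is not independent of the filter on dim probes. W20 over EGFP did not pass at 72 h (-0.64 ± 0.25, adjusted p = 0.0745), and in NPC neither group was above background; the call there (adjusted p = 0.0471) was lost under most settings, for example without W20 NPC replicate 2 (adjusted p = 0.199) or EGFP NPC replicate 1 (adjusted p = 0.196). No direction is given for it.

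Znrf3, a membrane ubiquitin ligase that removes Frizzled from the cell surface, read -1.27 and -1.19 in W20 cells and -1.49 and -1.50 in EGFP cells at 72 h, against -2.03 and -1.96 in W20 cells and -2.39 and -2.45 in EGFP cells in NPC. The 4 groups did not overlap. It rose over 72 h 1.70-fold with W20 and 1.90-fold with EGFP (adjusted p = 2.23e-05 and 1.53e-05), and was 1.20-fold higher with W20 at 72 h and 1.34-fold higher in NPC (adjusted p = 0.00478 and 7.87e-04).

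R-spondins are secreted proteins that bind Lgr4 or Lgr5 and withdraw Znrf3 from the membrane, which raises Wnt signalling. Rspo1 was lower with W20 at both stages: it read -4.58 and -4.32 in W20 cells and -2.97 and -2.85 in EGFP cells at 72 h, and -3.46 and -3.60 in W20 cells and -2.88 and -2.93 in EGFP cells in NPC. All W20 arrays lay below all EGFP arrays. The log2 difference was -1.54 ± 0.10 at 72 h (2.90-fold lower, adjusted p = 1.65e-04) and -0.62 ± 0.10 in NPC (1.54-fold lower, adjusted p = 0.00305), and the effects differed by -0.92 ± 0.14 (adjusted p = 0.0059), a call that was lost with normexp background correction (-0.30, adjusted p = 0.0896). Over 72 h Rspo1 fell 1.89-fold with W20 (adjusted p = 2.78e-04), against -0.01 ± 0.10 on the log2 scale with EGFP (adjusted p = 0.953).

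Lgr4 rose over 72 h, to 0.22 and 0.21 in W20 cells and 0.39 and 0.24 in EGFP cells, against -2.10 and -2.09 in W20 cells and -2.00 and -1.81 in EGFP cells in NPC. The stages did not overlap. It rose 4.96-fold with W20 and 4.65-fold with EGFP (adjusted p = 2.37e-06 and 4.48e-06). A second probe rose by 2.14 and 2.19 on the log2 scale and the third by 0.47 and 0.39, so the size depends on the probe. W20 over EGFP did not pass for the brightest probe of Lgr4, with -0.10 ± 0.08 at 72 h and -0.19 ± 0.08 in NPC (adjusted p = 0.328 and 0.0817), while the third was lower in NPC (-0.20, adjusted p = 0.0139).

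**Figure D4:**
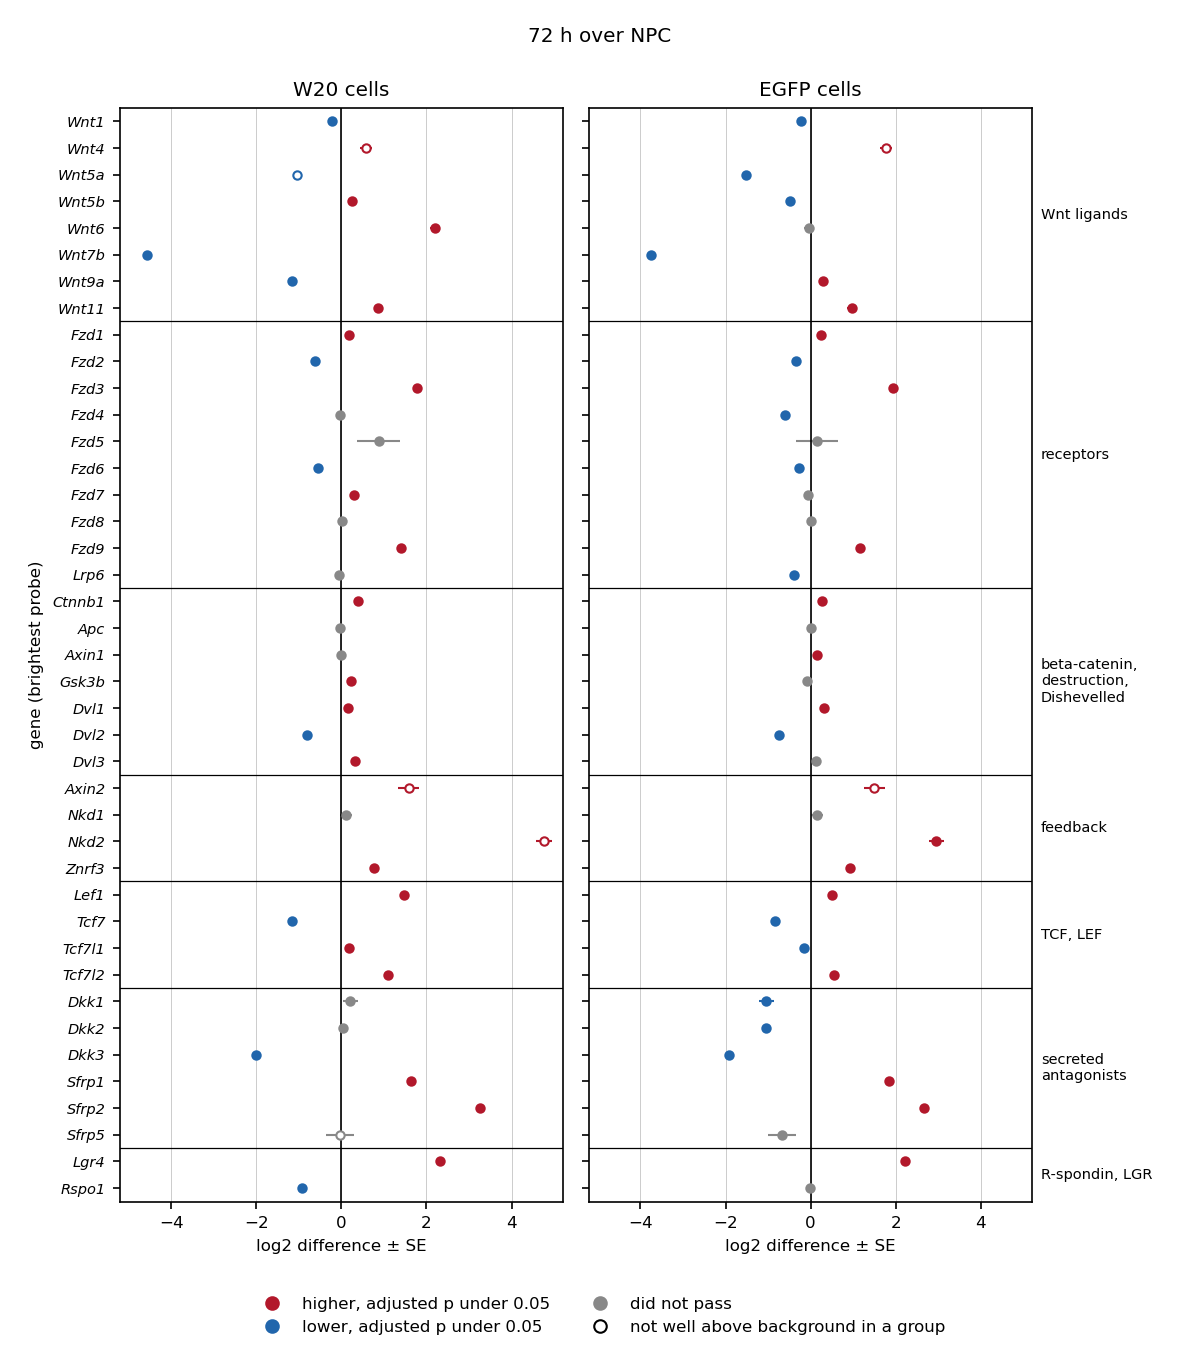
Log2 difference of 72 h over NPC ± SE (x axis, n = 2 arrays a group) for the 41 tested genes in W20 cells (left panel) and EGFP cells (right panel); filled red and blue points passed an adjusted p of 0.05, grey ones did not, and open points had a group with no array well above background. Wnt7b lies furthest left and Nkd2 furthest right in both panels, while Wnt6 stands right of 0 with W20 and at 0 with EGFP.

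The wider pathway was read from 5 further lists of 100 genes, of which 97 had a probe and 77 were tested. With W20, 14 rose and 30 fell at 72 h and 16 rose and 34 fell in NPC. Over 72 h, 31 rose and 33 fell with W20 and 28 rose and 29 fell with EGFP. Of all genes, 37.5% rose and 37.2% fell over 72 h with W20, and 36.1% and 33.9% with EGFP. For W20 over EGFP the share that fell, 30 and 34 of 77, stood above the 24.3% and 23.7% over all genes. These lists, like the members, were chosen with earlier results of these data known, so the share is not independent evidence. Among other ligands, Wnt10a was 4.94-fold lower with W20 in NPC (log2 difference -2.31 ± 0.13, adjusted p = 1.20e-04), and over 72 h it fell 4.66-fold with W20 and 13.4-fold with EGFP, while Wnt16 rose 6.01-fold and 2.64-fold. Wnt2 rose at least 5.62-fold over 72 h with W20 and 5.30-fold with EGFP.

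Of 13 other receptors and antagonists tested, 1 rose and 7 fell with W20 in NPC, and 4 rose and 2 fell at 72 h. Of all genes, 31.8% rose and 23.7% fell in NPC, and 28.5% and 24.3% at 72 h. Sostdc1, a secreted inhibitor of Wnt and BMP, was at least 6.75-fold lower with W20 in NPC (adjusted p = 5.80e-05) and rose at least 3.44-fold over 72 h with W20 (adjusted p = 8.28e-06), against a log2 difference of -0.39 ± 0.17 with EGFP (adjusted p = 0.0902). Frzb, also called Sfrp3, was at least 1.60-fold lower with W20 in NPC (adjusted p = 1.39e-04) and rose at least 8.19-fold over 72 h with W20 and 5.03-fold with EGFP (adjusted p = 1.28e-06 and 2.29e-05). Gpc4, a glypican that holds ligands at the cell surface, was 2.70-fold lower with W20 in NPC (adjusted p = 8.16e-05) and rose 14.3-fold with W20 and 3.29-fold with EGFP (adjusted p = 2.71e-07 and 5.55e-06). The differences of the W20 effects were 4.14 ± 0.25 for Sostdc1, 2.22 ± 0.18 for Frzb and 2.12 ± 0.09 for Gpc4, and all passed (adjusted p = 3.64e-04, 8.05e-04 and 2.31e-04). Neither W20 NPC array had Sostdc1 or Frzb well above background. Their differences take that dim signal as read, and the lower bounds above do not reach such sizes.

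Among the R-spondin partners, Rspo2 rose at least 5.24-fold with W20 and at least 6.14-fold with EGFP over 72 h (adjusted p = 8.21e-07 and 6.61e-06). No NPC array had Rspo2 well above background, so it entered the test only through the 72 h groups. Its rise is therefore not independent of the filter on dim probes. Its receptor Lgr6 was 2.50-fold higher with W20 in NPC (adjusted p = 7.65e-05) and fell over 72 h 7.20-fold with W20 and 3.42-fold with EGFP (adjusted p = 4.47e-07 and 3.43e-06). Rnf43, the close relative of Znrf3, fell at least 1.43-fold with W20 and at least 1.96-fold with EGFP (adjusted p = 3.99e-04 and 0.00127), while Znrf3 rose. No 72 h array had Rnf43 well above background, so its fall is likewise not independent of that filter. In the polarity branch Celsr1, an adhesion receptor of planar cell polarity, rose 21.3-fold with W20 and 7.29-fold with EGFP (adjusted p = 4.47e-07 and 3.06e-06).

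Of 30 other genes known as targets of beta-catenin and TCF, 21 were tested, and they did not move one way: with W20, 4 rose and 9 fell at 72 h and 8 rose and 9 fell in NPC, and over 72 h, 8 rose and 10 fell with W20 and 8 rose and 5 fell with EGFP. Over all genes 28.5% rose and 24.3% fell with W20 at 72 h, 31.8% and 23.7% in NPC, and over 72 h 37.5% and 37.2% with W20 and 36.1% and 33.9% with EGFP. Fosl1, a subunit of AP-1, fell over 72 h 14.8-fold with W20 and 6.76-fold with EGFP (adjusted p = 2.21e-07 and 9.02e-07). Tnfrsf19, a receptor also called Troy, rose at least 4.69-fold with W20 and 4.30-fold with EGFP (adjusted p = 1.57e-05 and 7.21e-05), and Ccn5 rose at least 6.31-fold with W20 and at least 8.94-fold with EGFP (adjusted p = 1.01e-06 and 1.97e-06). No NPC array had Ccn5 well above background, so its rise is not independent of the filter on dim probes. Bmp4, a BMP ligand, was 2.54-fold lower with W20 at 72 h and 2.52-fold lower in NPC (adjusted p = 4.78e-05 and 6.36e-05). Id2, known chiefly as a BMP target, was 2.55-fold lower with W20 at 72 h (adjusted p = 1.43e-04).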

How the data were processed

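The intensity values are Agilent Feature Extraction output of 1-colour (Cy3) arrays, version 10.7.3.1 per the file headers; the authors deposited 1 scanner file per array with a background-subtracted processed signal for each spot. Control spots and outlier spots were left out, and replicate spots of a probe were averaged. Each level is the log2 of the processed signal minus the array's 75th percentile. Of 41174 probes, 27584 were named through RefSeq (GRCm38.p6), and each gene took its brightest probe over the 8 arrays. Genes entered the test where at least 1 group had that probe well above background on each of its arrays, which left 13617 of 18842. The linear model and moderated test of limma 3.58.1 (R 4.3.3), 1 mean per group, were followed by Benjamini-Hochberg adjustment over all genes tested, with a threshold of 0.05. The number of arrays, 2 a group, limits the precision; no spot was saturated.

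The members and lists were chosen with earlier results of these data known. All members are accounted for; any called member could be named, in full where a log2 difference reached 0.5, and genes of the other pathway lists where called at a log2 difference of 1 or more in the comparison described. Alternatives were normexp background correction, quantile, median and spike-in scaling, other filters on dim probes, the mean of a gene's probes, a replicate block, fits on only the groups compared, the deposited value table and leaving out each array. Normexp used the median signal, offset 50, because the mean signal was not among the columns used. The authors' deposited value table, on a log2 scale, differed from the NPC scanner values by 1 shift per array, within 0.01 for 100.0% of probes; its 72 h columns matched their own arrays for 4.1% to 14.1% of probes and were not used. Replicate numbers did not pair the arrays: correlations of deviations between groups ran from -0.09 to 0.15. The fit was tested on simulated data. Tables and figures were made with Python 3.11.15, pandas 2.3.3, numpy 2.4.6 and matplotlib 3.10.9.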

Additional observations from a re-analysis of the deposited data

Results flagged for a closer look

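The results below stand out because the effect of W20 over EGFP differed between 72 h and NPC by a test of the difference itself (limma, adjusted p under 0.05, n = 2 arrays a group); each value is the log2 effect at 72 h minus that in NPC. Among ligands the difference was 2.24 for Wnt6, 0.72 for Wnt5b, 0.49 for Wnt5a, -0.82 for Wnt7b, -1.19 for Wnt4 and -1.45 for Wnt9a. Among receptors it was 0.57 for Fzd4, 0.35 for Fzd7, 0.32 for Lrp6, -0.27 for Fzd2 and -0.28 for Fzd6. Inside the cell it was 0.32 for Gsk3b and -0.17 for Dvl1. Among the TCF and LEF factors it was 0.96 for Lef1, 0.55 for Tcf7l2, 0.33 for Tcf7l1 and -0.35 for Tcf7. Among secreted antagonists it was 1.25 for Dkk1, 1.09 for Dkk2 and 0.58 for Sfrp2. It was 1.81 for Nkd2 and -0.92 for Rspo1. Several of these calls were lost under many settings: Fzd6 under 14, the replicate block among them, Dvl1 under 13, Lrp6 under 10, Gsk3b under 9 and Fzd2 under 8. That of Sfrp2 was lost with normexp background correction (0.18, adjusted p = 0.216). The probes of Fzd7 gave opposite signs, and Wnt4 was not well above background in NPC. Other probes of Wnt5b, Fzd2, Gsk3b, Dvl1, Tcf7l2 and Nkd2 did not pass for this difference. The stages lay on different slides, so a difference between stages cannot be told apart from one between slides.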

How the results depend on the processing

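Of 136 called values of the members, 90 kept direction and threshold under every setting run, and 46 lost the threshold under at least 1. Normexp background correction lost 25 and made 49 at least 1.5 times smaller, and spike-in scaling lost 25; the cause was not tested. For the difference of the W20 effects, 14 members were higher and 8 lower; spike-in scaling gave 9 higher and 4 lower, normexp 3 lower and the mean of a gene's probes 5 lower. The sign turned for a pair of values: Wnt4 in that difference was 0.07 with normexp (adjusted p = 0.796), and Fzd7 over 72 h with W20 was -0.08 with the mean of its probes (adjusted p = 0.0557). Leaving out 1 array gave 6 to 8 higher and 11 to 16 lower for W20 over EGFP at 72 h, and 7 to 9 and 16 to 20 in NPC. Over 72 h it gave 19 to 21 and 9 to 10 with W20, and 15 to 17 and 12 to 15 with EGFP. For the difference it gave 11 to 14 higher and 5 to 7 lower; the 5 came without W20 72 h replicate 2, EGFP 72 h replicate 1 or EGFP 72 h replicate 2. The call of Dkk1 in the difference was lost without W20 72 h replicate 1 (adjusted p = 0.0539), EGFP 72 h replicate 1 (0.0595) or W20 NPC replicate 2 (0.0533). With the replicate block, though the numbers do not pair the arrays, 9 members were higher and 19 lower in NPC and 8 and 16 at 72 h, and 3 called values were lost. Over all genes, 53.9% of the calls of W20 over EGFP at 72 h were higher, against 39.6% with spike-in scaling. Signal over background limits Wnt4, Wnt5a, Axin2, Dkk1, Sfrp5 and Nkd2, which were not above it on all arrays. W20 and EGFP shared a slide, so for them the fit on only the groups compared is also the fit within the slide; it lost 4 of 52 called values (Axin2, Dvl2 and Nkd2 in NPC and Dvl1 at 72 h). A slide block could not be fitted between stages.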
